A study of Mus musculus with 45 samples.

Results

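YEJH-M4 is a mouse mammary tumour cell line obtained from lung, and it was set against the 4 other lung lines that carry the YEJH name, YEJH-M1, YEJH-M2, YEJH-M3 and YEJH-M5. Its members were chosen by the line named in each sample's title, which gave 3 libraries of YEJH-M4 and 12 libraries of the other lung lines among 45 libraries in all. All 5 lines are PyMT+, that is, they carry the polyomavirus middle T antigen, which in the mouse model of the study is driven by the MMTV promoter, and the labels give no treatment. The labels give the origin of YEJH-M1, YEJH-M2, YEJH-M4 and YEJH-M5 as whole lung and that of YEJH-M3 as lung metastases. Each line was grown in culture for 24 h after plating and sequenced as polyA RNA in 3 repeats, which the study describes as technical, so that a line counted once as a biological unit. Whether a line descends from a single cell, and the age of the mouse it came from, were not given in the sources used here. The RNA came from whole cultures, so that more cells expressing a gene and more RNA per cell cannot be told apart. Libraries fell into run A (7 libraries, among them repeat 1 of YEJH-M4) and run B (8 libraries, among them repeats 2 and 3), and run entered the comparison as a covariate.

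Tumour lines that share an oncogene can differ in which part of an epithelial programme they express. Mammary carcinoma cells can switch on genes of stratified epithelium, secrete cytokines that act on myeloid cells, and remodel the basement membrane through collagens, integrins and proteases. These groups, and the genes that set YEJH-M4 apart within them, are described in turn.

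The 15 libraries held 9723860 to 16922450 reads on genes, and those of YEJH-M4 14123896 to 15888200. A class of low-quality reads held at least 892979 reads in every run A library and 0 in run B. Repeat 2 of YEJH-M3 stood apart, with 43.3% of its reads outside genes or unassigned against 31.69% to 35.63% in the other 14 libraries. Markers of mammary epithelium were present in YEJH-M4 at levels inside the range of the other 12 libraries. The epithelial adhesion gene *Epcam* reached 578 to 623 reads per 1000000 (CPM), *Cdh1* 393 to 405 CPM, *Krt8* 2730 to 3680 CPM and *Krt18* 2500 to 2560 CPM. *Sftpc* of alveolar cells and *Adipoq* of fat cells had 0 reads in all 15 libraries, and *Ptprc*, carried by all leukocytes, did not exceed 0.425 CPM in YEJH-M4. Of 17 leukocyte markers, 8 were at 0 in all 15 libraries, and their summed level was 8.42 to 11.4 CPM in YEJH-M4 and 6.05 to 10.1 CPM in the other libraries.

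A gene was called when its adjusted p was below 0.05 and the mean of YEJH-M4 lay outside the range of the 4 other line means. In edgeR's quasi-likelihood test over 13599 genes, 192 genes were called higher in YEJH-M4 (1.41% of genes tested) and 82 were called lower (0.603%), together 274 genes (2.01%). With no test at all, 3681 genes (27.1%) had their YEJH-M4 mean outside the range of the 4 others. Each of the other lines was more often the highest or the lowest of the 5, from 34.6% of genes in YEJH-M2 to 52.5% in YEJH-M1. The distance between line means over all genes, in log2 CPM, was also smallest on average for YEJH-M4, at 42.5 against 44.3 to 51.6, and its nearest line was YEJH-M3. Differences were mostly small: 151 of the 274 genes lay within 1.2-fold of the nearest other line, and 10 higher and 5 lower genes were separated by 2-fold or more. Without repeat 2 of YEJH-M3, 419 genes were called, 312 higher and 107 lower, and 272 of the 274 genes were among them. Leaving out 1 YEJH-M4 library reduced the count to 161 without repeat 1, 141 without repeat 2 and 165 without repeat 3. Within run A alone 178 genes were called, and within run B alone 42.

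**Figure D1:**
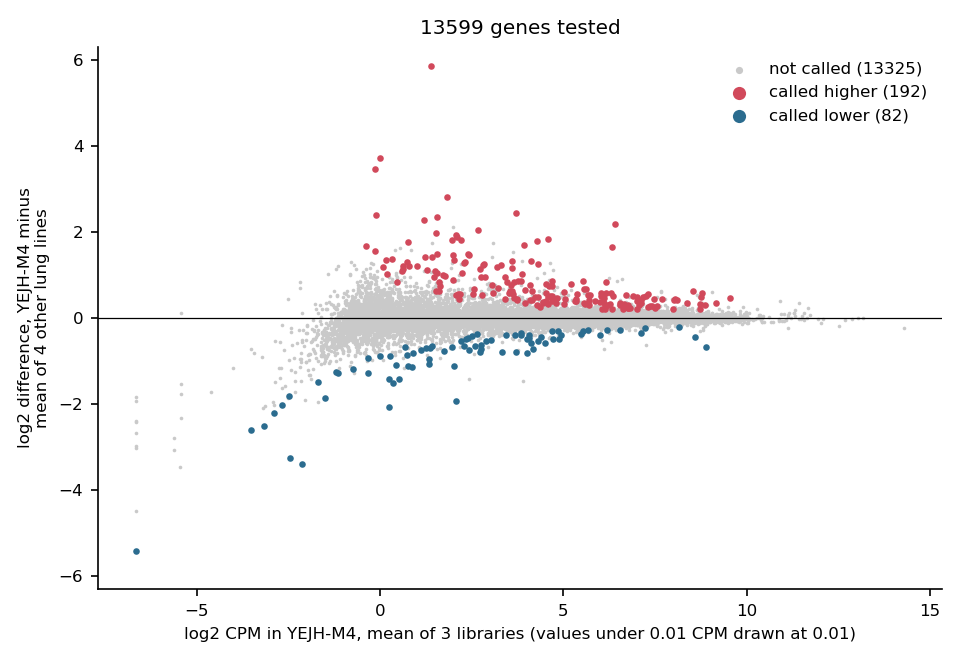
The x axis gives the mean level of a gene in YEJH-M4 (log2 CPM) and the y axis its log2 difference from the mean of the 4 other lung lines, with 1 point per gene tested. The 192 genes called higher are in red and the 82 called lower in blue, and 1 gene, *Loxl4*, falls below the axis because YEJH-M4 had 0 reads.

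The p values above weigh the difference against repeats of a line, not against the spread between lines. When the libraries of each line were summed and YEJH-M4 was compared with the 4 other lines by the same test, 0 genes passed (0% of genes tested), and 124 had an unadjusted p below 0.05, 79 higher and 45 lower. Of these 124 genes, 77 were also called between libraries, against 2.01% of all genes tested. Both comparisons used the same counts, so this overlap is no independent evidence. DESeq2 called 1 gene on the same sums, *Serpinb2*, and limma called 0. In this comparison the lone line was assumed to vary like the other 4. The genes with the smallest line-level p were *Crip1*, *Mall*, *Klhl13*, *Serpinb2* and *Xirp2* among those higher in YEJH-M4, and *Zfp747l1*, *Gm12070*, *Tslp* and *Rbpj-ps3* among those lower.

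*Klhl13*, an adaptor of the cullin 3 ubiquitin ligase, was nearly absent from the other lung lines. It reached 2.81, 2.69 and 2.41 CPM in repeats 1 to 3, whereas the other 12 libraries spanned 0 to 0.233 CPM with a median of 0.0651 CPM. In reads, YEJH-M4 held 118 in all and the other 12 libraries 12, and 5 of those 12 libraries held 0. Between run-adjusted means of log2 CPM with a prior count of 2, it lay 9.89-fold above YEJH-M3, the nearest line (log2 difference from the mean of the 4 lines 5.85, standard error 0.33, adjusted p = 5.66e-07 in edgeR's test). Separations from the nearest line are given on this scale, apart from bounds drawn from 0 reads. The prior count makes folds at low counts smaller than those between plain CPM means, which were 2.65 and 0.148 CPM with all YEJH lines scaled together. *Crip1*, which encodes a small LIM-domain protein, reached 3.51, 4.34 and 2.78 CPM against 0.284 to 0.888 CPM, a separation of 4.43-fold from YEJH-M5. The membrane raft protein gene *Mall* reached 0.912, 1.24 and 0.864 CPM against 0 to 0.18 CPM, and *Xirp2*, which encodes an actin-binding protein of muscle, reached 0.702, 0.758 and 1.3 CPM against 0 to 0.3 CPM. For these 4 genes no YEJH-M4 library overlapped any of the 12 others.

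Genes of stratified epithelium gave more higher calls than any other list described here. A list of 57 keratinocyte and cornification genes, assembled after values had been seen, had 31 members tested, of which 7 were called higher and 0 lower, or 22.6% against 2.01% of all genes tested, and that count tests nothing. The median log2 difference was 0.28 in the list and -0.01 over all genes. *Krt6a*, a keratin of activated keratinocytes, reached 17.7, 15.2 and 13.2 CPM in YEJH-M4, against a lowest, median and highest value of 2.94, 4.35 and 8.63 CPM in the other libraries. Every YEJH-M4 library thus exceeded every other, and the mean was 2.39-fold above YEJH-M3 (log2 difference 1.71, standard error 0.17, adjusted p = 3.13e-05 in edgeR's test). The widest-gap rule, by which *Krt6a* was named, already required no overlap within either run. *Krt6a* has near-identical paralogues, so that reads may have been shared between copies. *Tgm1*, the transglutaminase that cross-links the cornified envelope, reached 7.79, 6.68 and 6.54 CPM against 2.03 to 4.67 CPM. *Asprv1*, a protease of the upper epidermis, reached 2.74, 2.76 and 3.15 CPM against 0.178 to 1.74 CPM, and *Il1rl2*, the receptor of interleukin 36, reached 1.54, 2 and 1.6 CPM against 0.0771 to 1.14 CPM. *Serpinb2*, the intracellular inhibitor of plasminogen activators, was the most abundant of the group, at 350, 396 and 370 CPM against 218 to 314 CPM (log2 difference 0.62, standard error 0.08, adjusted p = 0.000470). The secreted proteins *Slurp1* (2.39, 2.83 and 2.78 CPM against 0.0687 to 3 CPM) and *Sbsn* (18 to 20.4 CPM against 8.24 to 20.9 CPM) overlapped other lines, and *Sbsn* was 1.00-fold from YEJH-M1. Other defining genes of the list did not follow: *Krt16* had a log2 difference of 0.07 (standard error 0.13, adjusted p = 0.938), *Ivl* -0.09 (standard error 0.29, adjusted p = 0.966) and *Krt10* -0.18 (standard error 0.26, adjusted p = 0.911). Leaving out repeat 2 of YEJH-M4 ended the calls of *Slurp1*, *Il1rl2* and *Sbsn*. *Slurp1* lost its call in 5 of 15 fits that left out 1 library (largest adjusted p = 0.143), *Sbsn* in 2 (0.0392, with its mean then inside the range) and *Il1rl2* in 1 (0.0718). In the 5 lines from fat-pad tumours *Krt6a* spanned 6.49 to 15 CPM, and the parental line held 28.5 CPM, above YEJH-M4.

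**Figure D2:**
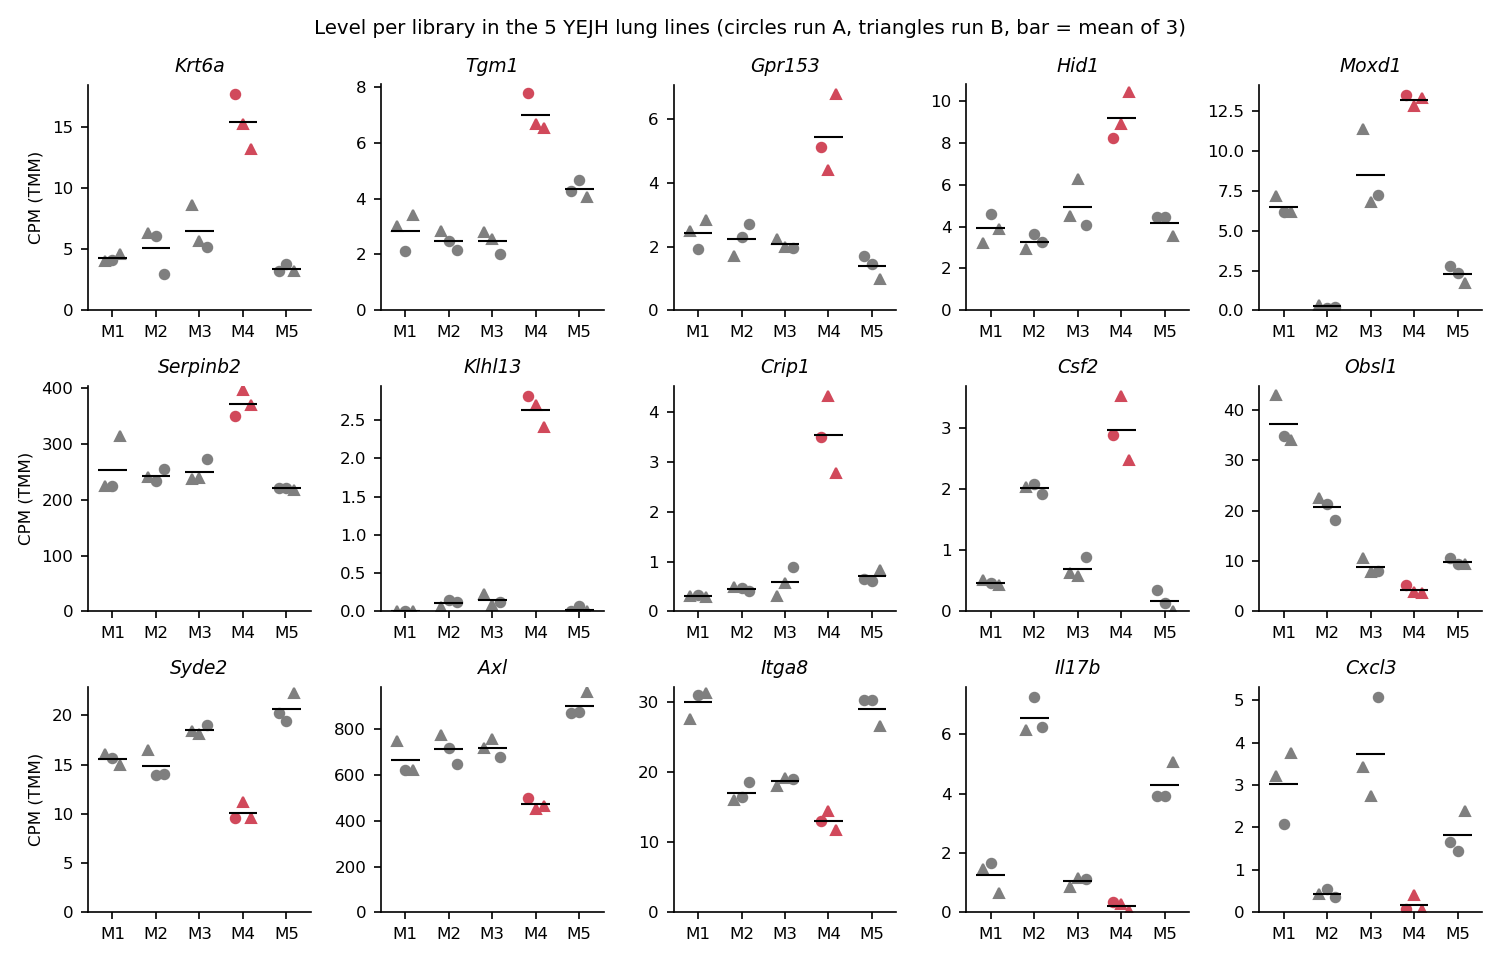
Level of 15 genes in CPM after TMM scaling (y axis, from 0) in each library of the 5 lung lines (x axis), with circles for run A, triangles for run B and a bar at the mean of 3 repeats. The YEJH-M4 points in red lie above all others for *Krt6a*, *Klhl13* and *Crip1* and below all others for *Obsl1*, *Syde2* and *Axl*.

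Among the other genes with the widest gap upwards were several receptors and enzymes. *Gpr153*, an orphan receptor coupled to G proteins, reached 5.12, 4.41 and 6.79 CPM against 0.981 to 2.84 CPM, 2.17-fold above YEJH-M1 (log2 difference 1.46, standard error 0.17, adjusted p = 0.000131). *Hid1*, a Golgi protein of secretory cells, reached 8.21, 8.89 and 10.4 CPM against 2.95 to 6.29 CPM. *Adgre5*, the adhesion receptor CD97, reached 17.3, 22.4 and 19.8 CPM against 3.64 to 13 CPM. *Enpp2*, which encodes autotaxin, the enzyme that makes lysophosphatidic acid, reached 4.49, 6.27 and 5 CPM against 0.561 to 4.3 CPM. *Flt4*, the receptor VEGFR3, reached 7.09, 7.44 and 7.04 CPM against 1.71 to 6.48 CPM. The rule that named these 5 genes required no overlap with other libraries within either run, so that separation is no added evidence. For *Enpp2* and *Flt4* the libraries of YEJH-M2 came close. *Moxd1*, a copper monooxygenase related to dopamine beta-hydroxylase, varied widely among the other lines, from 0.254 CPM in YEJH-M2 to 8.48 CPM in YEJH-M3, and reached 13.2 CPM in YEJH-M4. *Pdzd7*, a scaffold protein, reached 6.52 to 6.79 CPM against 1.77 to 4.63 CPM, and *AU018091* reached 14.1 to 14.5 CPM against 5.49 to 11.3 CPM.

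Genes lower in YEJH-M4 were led, among those with at least 5 CPM, by *Obsl1*, which encodes a cytoskeletal adaptor. It held 5.26, 3.79 and 3.7 CPM against a lowest, median and highest value of 7.78, 14.4 and 42.9 CPM in the other libraries, and its mean was 2.06-fold below that of YEJH-M3 (log2 difference -1.93, standard error 0.15, adjusted p = 1.58e-06 in edgeR's test). The receptor tyrosine kinase gene *Axl* was the most abundant gene of this group, at 498, 453 and 465 CPM against 623 to 962 CPM (log2 difference -0.67, standard error 0.07, adjusted p = 3.51e-05). *Syde2*, which encodes a GTPase-activating protein, held 9.54, 11.2 and 9.57 CPM against 14 to 22.3 CPM, and the guidance receptor gene *Flrt2* held 15.2, 16.6 and 16.7 CPM against 19.6 to 38.1 CPM. The remaining members by gap were *Zfp747l1*, *Pogk*, *Ly6c1*, *Itga8*, *Mmp24*, *Zc3h12c* and *Uap1l1*, with separations of 1.25-fold to 1.52-fold. Of these, *Mmp24* and *Zc3h12c* lost the call without repeat 1 or repeat 2 of YEJH-M4 (largest adjusted p = 0.0739 and 0.161). *Ly6c1* has near-identical paralogues, and its level is uncertain for that reason. The pseudogenes *Gm12070* and *Rbpj-ps3*, named by their line-level p, differed between runs. *Gm12070* did not pass between libraries (adjusted p = 0.156), and held 0.351 CPM in run A and 0 and 0.0617 CPM in run B within YEJH-M4. *Rbpj-ps3* held 17.9 CPM in run A and 9.37 and 11.5 CPM in run B within YEJH-M4, and lost its call without repeat 1 or repeat 2 (largest adjusted p = 0.178).

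Of 32 tested members of a list of chemokines, cytokines and myeloid growth factors, 3 were called higher and 3 lower. That is 18.8% of the list against 2.01% of all genes tested (1.41% higher and 0.603% lower), and the median log2 difference was 0.11 in the list and -0.01 over all genes. The calls of *Csf2*, *Il17b* and *Cxcl3* were kept when any 1 library was left out, and those of *Csf3*, *Il1rn* and *Tslp* were not. *Csf2*, which encodes the granulocyte-macrophage factor GM-CSF, reached 2.88, 3.51 and 2.47 CPM in YEJH-M4. The other 12 libraries spanned 0 to 2.08 CPM, the highest being those of YEJH-M2 (log2 difference 2.35, standard error 0.25, adjusted p = 4.81e-05 in edgeR's test). *Csf3*, the granulocyte factor G-CSF, was far more abundant at 60.1 to 68.5 CPM but lay only 1.01-fold above YEJH-M2, and its call was lost in 10 of 15 fits that left out 1 library. *Il1rn*, the antagonist of interleukin 1, reached 2.74 to 5.8 CPM against 0.981 to 4.7 CPM. *Il17b*, a cytokine of the interleukin 17 family, held 0.351, 0.276 and 0.0617 CPM, or 10 reads in all, against 0.639 to 7.25 CPM. The neutrophil chemokine gene *Cxcl3* held 0.0702, 0.414 and 0.0617 CPM, or 8 reads in all, against 0.36 to 5.07 CPM. For *Cxcl3* the nearest line was YEJH-M2 at 0.444 CPM, well under the 1.83 to 3.74 CPM of the remaining lines. *Tslp*, an epithelial cytokine, held 0.982, 1.45 and 1.6 CPM against 2.03 to 4.6 CPM, and lost its call without repeat 1 or repeat 2 of YEJH-M4 (largest adjusted p = 0.258). *Il1rn* lost its call without repeat 2 or repeat 3 (largest adjusted p = 0.156).

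**Figure D3:**
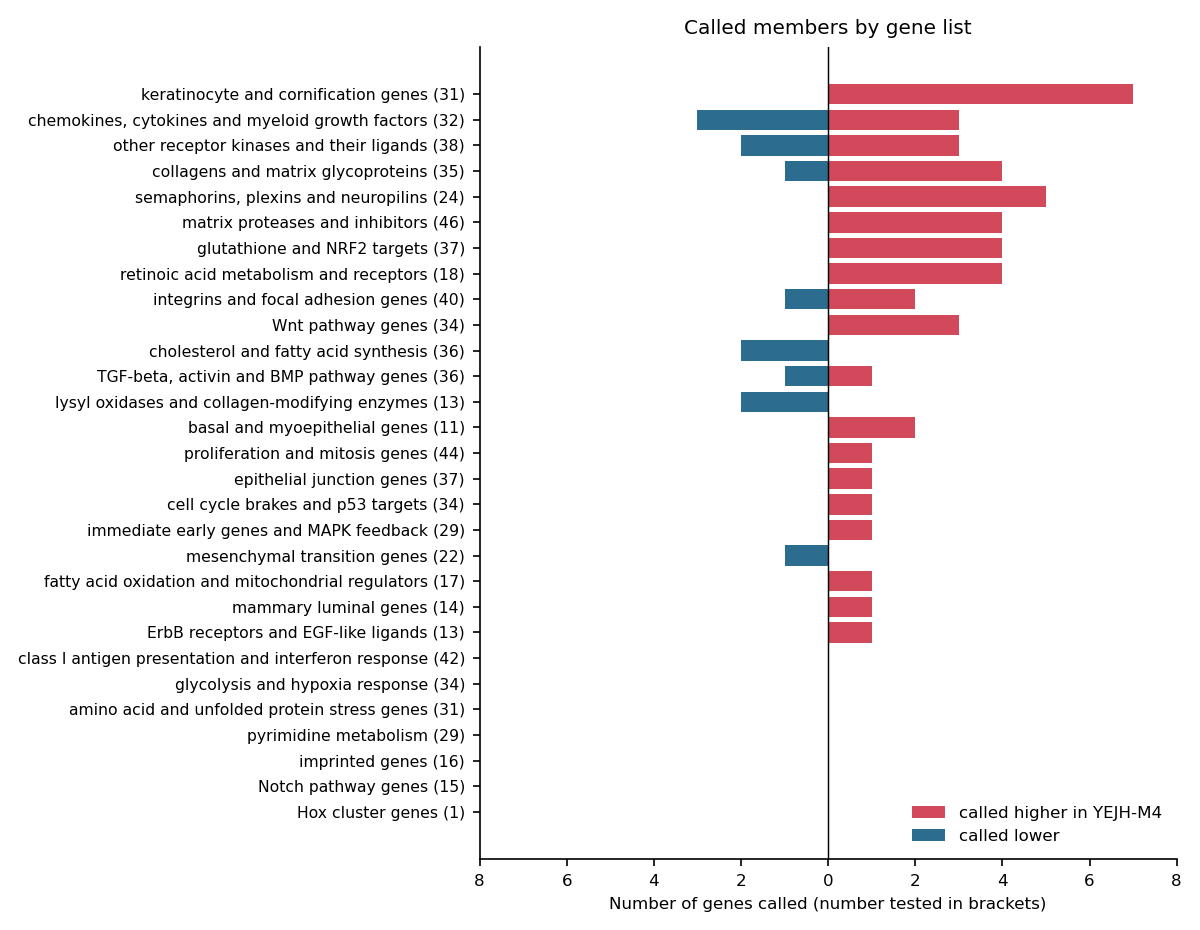
Number of genes called higher (red, to the right) and lower (blue, to the left) in YEJH-M4 in each gene list (y axis, number tested in brackets). The lists of keratinocyte genes, retinoic acid genes and semaphorins were assembled after values had been seen, and the 7 lists at the bottom have no member called. The 5 lists of markers of other cell types are not drawn.

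Matrix and adhesion genes differed in single members, with calls in both directions. Of 35 collagens and matrix glycoproteins, 4 were called higher and 1 lower (14.3% against 2.01% of all genes tested), with a median log2 difference of 0.05. *Npnt* encodes nephronectin, a basement membrane ligand of integrin alpha 8, and *Itga8* encodes that integrin chain. *Npnt* reached 45.1, 49.6 and 45.4 CPM against 18 to 47.5 CPM, the highest value being repeat 2 of YEJH-M3, and its log2 difference was 0.86 (standard error 0.14, adjusted p = 0.00208 in edgeR's test). *Itga8* held 13, 14.5 and 11.8 CPM against 16.1 to 31.3 CPM, with a log2 difference of -0.80 (standard error 0.08, adjusted p = 3.59e-05). *Col5a1* reached 17.6, 19.2 and 21.9 CPM, while the other lines ran from 1.59 CPM in YEJH-M5 to 15.5 CPM in YEJH-M1. *Col4a6* was called higher (67.7 to 75.7 CPM against 26.6 to 67.2 CPM) and *Col4a1*, the main basement membrane collagen, was called lower (379 to 404 CPM against 403 to 675 CPM). *Col7a1*, the anchoring fibril collagen, was 1.02-fold above YEJH-M2. Among 40 integrin and focal adhesion genes, *Itgb6* and *Itgb7* were called higher beside *Itga8* lower (7.5%, median 0.03). *Loxl4*, a lysyl oxidase that cross-links collagen, had 0 reads in all 3 YEJH-M4 libraries, which allows up to 3 reads or 0.0667 CPM over the line. It was thus at least 6.06-fold lower than in YEJH-M3, 32.7-fold lower than in YEJH-M1 and 116-fold lower than in YEJH-M2. In YEJH-M5, which held 80.7 CPM, the bound was at least 1210-fold. The YEJH line from a primary mammary tumour, here called parental, also had 0 reads, and the 5 lines from fat-pad tumours held only 0.0848 to 3.2 CPM. *P3h2*, a collagen prolyl hydroxylase, was 1.02-fold below YEJH-M1 and lost its call in 5 of 15 fits that left out 1 library. In the list of 46 proteases and inhibitors, 4 were called higher and 0 lower (8.7% against 2.01% of all genes tested, median log2 difference 0.07). These were *Serpinb2*, *Adamts15*, *Klk6* and *Plat*, and *Klk6* and *Plat* lay 1.03-fold and 1.02-fold above the nearest line. *Itgb6*, *Adamts15*, *Klk6*, *Plat* and *Col7a1* each lost the call when 1 library was left out, with largest adjusted p values of 0.165, 0.157, 0.168, 0.065 and 0.121.

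Receptor and pathway genes gave another opposed pair. *Gas6* encodes the ligand of the receptor Axl, and it was called higher at 1.54, 1.52 and 0.741 CPM against 0.21 to 1.24 CPM, whereas *Axl* was called lower as given above. The call of *Gas6* rested on 56 reads in YEJH-M4 and was lost in 10 of 15 fits that left out 1 library, whereas that of *Axl* was kept in all 15. In the list of 38 other receptor kinases and ligands, 3 were called higher and 2 lower (13.2% against 2.01% of all genes tested, median log2 difference -0.05). Beside *Gas6*, *Angptl4* (77.5 to 81.2 CPM against 34.6 to 73.1 CPM) and *Pdgfc* were called higher. *Pdgfc* lost its call without repeat 3 of YEJH-M3, where its mean fell inside the range (largest adjusted p = 0.0155 in edgeR's test). *Ephb2*, a receptor of ephrins, was called lower at 0.281 to 0.432 CPM against 0.474 to 2.16 CPM, and lost the call without any of the 3 YEJH-M4 libraries (largest adjusted p = 0.127). Of 34 Wnt pathway genes, *Lgr6*, *Fzd6* and *Notum* were called higher (8.82% against 2.01% of all genes tested, median log2 difference 0.09). The separation of these 3 was slight, at 1.11-fold, 1.04-fold and 1.00-fold, and each lost its call without repeat 2 of YEJH-M4, with largest adjusted p values of 0.177, 0.204 and 0.0591. *Apcdd1*, an inhibitor of Wnt signalling that is not in the list and was named after its value was seen, held 1.05, 1.17 and 1.36 CPM against 3.01 to 9.04 CPM. Its mean was 2.68-fold below YEJH-M1 (log2 difference -2.08, standard error 0.14, adjusted p = 7.64e-07 in edgeR's test). *Hhip*, an inhibitor of hedgehog signalling also named afterwards, held 0.926 to 2 CPM against 2.48 to 10.8 CPM, and lost its call without repeat 1 or repeat 3 of YEJH-M4 (largest adjusted p = 0.0600). Of 36 genes of the TGF-beta, activin and BMP pathways, *Smad3* was called higher and *Nog*, which encodes the BMP antagonist noggin, lower (5.56% against 2.01%). Both lost the call in 2 of 15 fits that left out 1 library (largest adjusted p = 0.0995 and 0.156 in edgeR's test). None of 15 Notch pathway genes was called. In the list of ErbB receptors and ligands, 1 of 13 genes was called higher (7.69% against 2.01%), the ligand *Btc*, at 1.13-fold above YEJH-M1. *Btc* lost the call without repeat 1 or repeat 2 of YEJH-M4 (largest adjusted p = 0.210 in edgeR's test).

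Genes that handle retinoic acid were called higher at several steps of the pathway. This list of 38 genes and that of semaphorins were assembled after values had been seen, so that the counts describe and test nothing. Of 18 retinoic acid genes tested, 4 were called higher and 0 lower (22.2% against 2.01% of all genes tested, median log2 difference 0.10). *Aldh1a3*, which makes retinoic acid from retinaldehyde, reached 3.23, 4.69 and 5.93 CPM against 0.344 to 3.39 CPM (log2 difference 1.81, standard error 0.20, adjusted p = 7.64e-05 in edgeR's test). *Crabp2*, which carries retinoic acid to the nucleus, reached 73.9, 86.5 and 79.3 CPM. The other lines were graded from 8.6 CPM in YEJH-M5 through 18.6 CPM in YEJH-M3 and 39.1 CPM in YEJH-M2 to 67.6 CPM in YEJH-M1 (log2 difference 1.64, standard error 0.07, adjusted p = 3.88e-09). *Cyp26b1*, which breaks retinoic acid down, reached 2.17, 2.62 and 2.47 CPM against 0.412 to 1.97 CPM, and *Dhrs3*, a retinaldehyde reductase, reached 0.772 to 1.38 CPM against 0.19 to 1.21 CPM. *Cyp26b1* lost its call without repeat 1 of YEJH-M4 (adjusted p = 0.0518) and *Dhrs3* without repeat 2 or repeat 3 (largest adjusted p = 0.0880). The receptors *Rara*, *Rarg*, *Rxra* and *Rxrb* were not called, with log2 differences from -0.19 to 0.12. Of 24 semaphorins, plexins and neuropilins tested, 5 semaphorins were called higher (*Sema3b*, *Sema3c*, *Sema3d*, *Sema4a* and *Sema4f*) and no plexin or neuropilin was called (20.8%, median log2 difference 0.04). *Sema4f* showed this most evenly, at 27.6, 24.7 and 25.4 CPM against 9.11 to 20 CPM, and kept its call in all 15 fits that left out 1 library, as did *Sema3b*. *Sema3c* lost its call in 8 of those 15 fits, *Sema4a* in 3 and *Sema3d* in 2. *Ngfr*, the low-affinity neurotrophin receptor, reached 88.4, 89.2 and 79.4 CPM in YEJH-M4. Its line means fell in the same order as those of *Crabp2*, with 68.9 CPM in YEJH-M1, 23.7 CPM in YEJH-M2, 20.3 CPM in YEJH-M3 and 3.65 CPM in YEJH-M5.

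Metabolic and stress genes showed small differences. Of 37 genes of glutathione metabolism and the NRF2 response, 4 were called higher and 0 lower (10.8% against 2.01% of all genes tested), with a median log2 difference of 0.09. *Gsr*, glutathione reductase, reached 319, 333 and 338 CPM against 217 to 302 CPM (log2 difference 0.36, standard error 0.04, adjusted p = 0.000128 in edgeR's test), and *Gsta4* reached 36.4 to 45.8 CPM against 19.3 to 42.2 CPM. *Srxn1* lay 1.02-fold above YEJH-M2, and *Gsta1*, whose reads may be shared with a paralogue, rested on 47 reads in YEJH-M4. *Cpt1a*, which admits fatty acids to mitochondrial oxidation, was called higher at 56.2 to 61.8 CPM against 35.7 to 50.1 CPM. It was the only call among 17 genes of that list (5.88% against 2.01% of all genes tested). The lipid synthesis genes *Dhcr7* and *Fads1* were called lower, 2 of 36 (5.56% against 2.01%). *Fos* was the only call among 29 immediate early genes (3.45% against 2.01%), at 21.3, 18.3 and 13.8 CPM against 8.71 to 15.5 CPM. In fits that left out 1 library, *Gsta1* lost its call in 10 of 15, *Dhcr7* and *Fads1* in 3, and *Srxn1*, *Cpt1a* and *Fos* in 2. *Foxj1*, a regulator of ciliated cells, was called lower (16.7 to 20.5 CPM against 14.9 to 69.5 CPM) but lay 1.03-fold from YEJH-M2 and lost its call in 4 of 15 such fits. Of 12 listed markers of lung epithelium, 6 had 0 reads in all 15 libraries, among them *Sftpb*, *Sftpc*, *Scgb1a1* and *Nkx2-1*. Only 2 of the 12 were tested, *Foxj1* and 1 other, which was not called and had a log2 difference of 0.86. No gene was called among 42 genes of class I antigen presentation and interferon response, 34 of glycolysis and hypoxia, 31 of amino acid and unfolded protein stress, 16 imprinted genes or the 1 Hox gene tested.

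The study asked of these lines whether they differ in uridine phosphorylase, which splits uridine into uracil and ribose 1-phosphate. *Upp1* reached 38.7, 40 and 36.9 CPM in YEJH-M4, inside the range of 25.3 to 43.1 CPM of the other libraries and between the means of YEJH-M1 (35.1 CPM) and YEJH-M2 (41 CPM). Its log2 difference from the mean of the 4 lines was 0.23 (standard error 0.08, adjusted p = 0.184 in edgeR's test). Without YEJH-M2, the line with the highest mean, the difference was 0.34 and *Upp1* was called higher (adjusted p = 0.0489). *Upp2* held 0.702 to 1.23 CPM against 0.416 to 1.27 CPM (log2 difference 0.17, standard error 0.28, adjusted p = 0.921). None of 29 genes of pyrimidine metabolism was called.

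Position along the genome was also read. A run of neighbouring genes on chromosome 4 was higher in YEJH-M4 as a block, from *Plekhf2* to *Rbm12b1* (GRCm39, 10987083 to 12172031, 1185 kb). Its bounds were drawn after the values had been seen. All 15 protein-coding genes tested in it had a positive log2 difference, 12 were called higher, and 14 lay above the range of the 4 other lines. The median log2 difference of the 15 genes was 0.524, or 1.44-fold, and the called members ranged narrowly from 0.43 in *Esrp1* to 0.79 in *Cibar1*. These neighbours do unrelated work: *Virma* belongs to the complex that methylates adenosine in RNA, *Ints8* to the Integrator complex, *Rad54b* to homologous recombination, *Ccne2* encodes cyclin E2, *Pdp1* a phosphatase that activates pyruvate dehydrogenase, *Tmem67* and *Cibar1* ciliary proteins, *Trp53inp1* a p53 target and *Esrp1* a splicing regulator of epithelial cells. *Virma* reached 155 to 166 CPM against 86 to 119 CPM in the other libraries, *Cibar1* 35.8, 39.2 and 36 CPM against 17.5 to 25.4 CPM, and *Esrp1* 208, 211 and 206 CPM against 134 to 226 CPM. *Ccne2* lost its call in 10 of 15 fits that left out 1 library (largest adjusted p = 0.315), *Trp53inp1* and *Ndufaf6* in 2 (0.151 and 0.171) and *Tmem67* in 1 (0.0828), while the other 8 called members kept theirs in all 15. The 3 members not called were *Fsbp*, *Rbm12b1* and *Rbm12b2*, of which *Rbm12b2* was -0.12 in run A alone. Some neighbours in the block overlap on opposite strands: *Ccne2* and *Ints8*, *Tmem67* and *Rbm12b2*, and *Cibar1* and *Rbm12b1*. The library kit does not mark strand, so reads from these overlaps could not be told apart. *Fsbp* lies within *Rad54b* on the same strand, where strand would not separate them either. The 12 calls in the block count against 192 higher calls among all genes (1.41%).

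Genes on either side differed less. The 16 tested genes before it, from *Tmem68* to *Cfap418*, had a median log2 difference of 0.03 with 0 called, and the 29 genes after it, from *Otud6b* to *Ankrd6*, had a median of 0.105 with 1 called, *Decr1*. Each YEJH-M4 library showed the block when set against the other lines of its own run, with medians of 0.41 for repeat 1 in run A and 0.54 and 0.52 for repeats 2 and 3 in run B. Set against the mean of the 10 other YEJH lines, the median of the block was 0.49 in YEJH-M4, and the 10 others lay between -0.35 and 0.06. The lowest of these was YEJH-M1, which was low along the whole of chromosome 4, with a median over 726 genes of -0.31 against the 4 other lung lines. Chromosome 4 as a whole was accordingly at 0.07 in YEJH-M4 and at 0.06 to 0.10 in YEJH-M2, YEJH-M3 and YEJH-M5. A weaker shift in the other direction ran over 50 genes at the start of chromosome 7, from *Tsen34* to *Zbtb45* (GRCm39, 3688202 to 12764976). This window was picked for its value, the lowest median among 1046 overlapping windows of 50 genes, so its counts describe and test nothing. There the median was -0.16, 46 of 50 differences were negative, 28 genes lay below the range of the other lines and 0 were called. Chromosome 7 as a whole was also low in YEJH-M4, with the lowest median of any chromosome (-0.07). Of its 853 tested genes, 30.8% lay below the range, against 2021 of 13599 over all genes. Its median was -0.04 in YEJH-M3 and YEJH-M5, 0.11 in YEJH-M1 and 0.03 in YEJH-M2, each set against the 4 other lung lines. Chromosome 15 had the highest median in YEJH-M4, at 0.08, with 78.6% of 453 differences positive. On it 18 genes were called higher, against 192 of 13599 over all genes. YEJH-M1 and YEJH-M2 stood higher there, at 0.14 and 0.23, and YEJH-M3 and YEJH-M5 lower, at -0.16 and -0.27. DNA was not measured in these libraries.

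**Figure D4:**
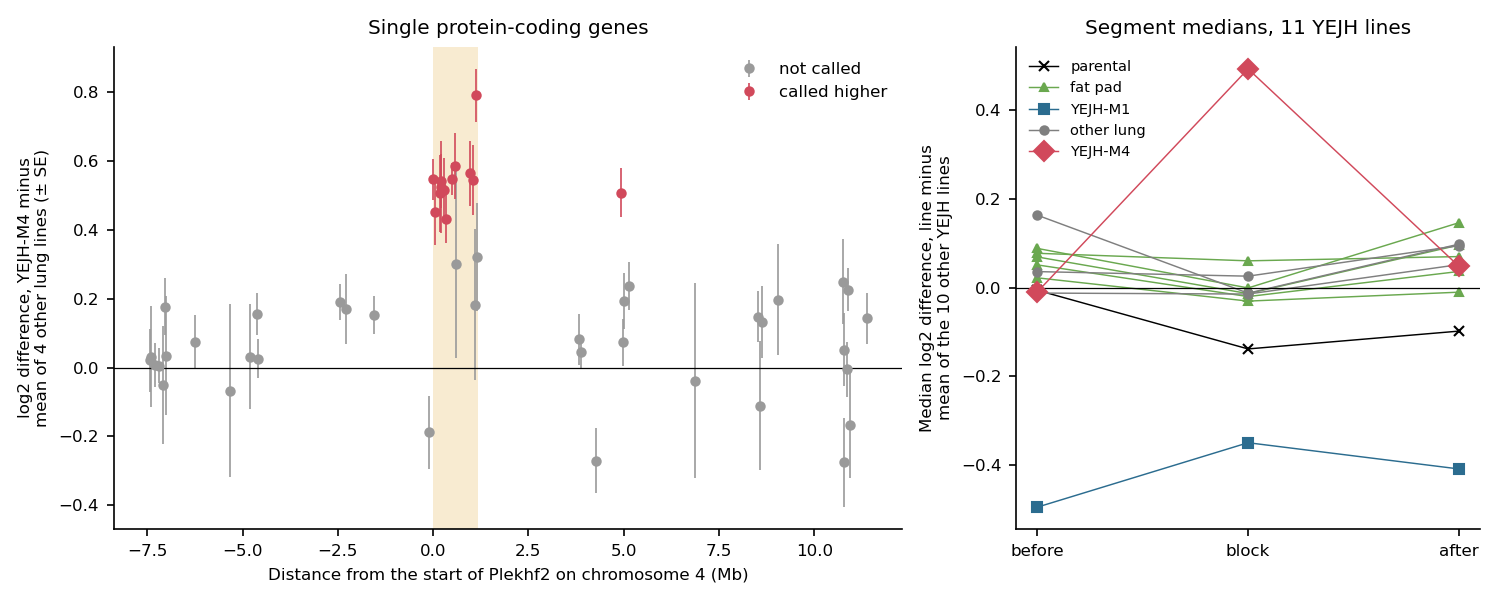
Left, log2 difference of YEJH-M4 from the mean of the 4 other lung lines (y axis, with standard error) for each protein-coding gene tested, by distance in Mb from the start of *Plekhf2* (x axis), with the block shaded and called genes in red. Right, median log2 difference of each of 11 YEJH lines from the mean of the 10 others before, within and after the block, where YEJH-M4 alone rises to 0.49.

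The 274 genes were then read in the 5 fat-pad tumour lines and the parental line, which had not entered the comparison, with all 11 lines scaled together. In 199 of them (72.6%) the mean of YEJH-M4 lay outside all 10 other YEJH lines in the called direction, 147 higher and 52 lower. The call had already placed these genes outside 4 of the 10 lines, which fixes part of that share. Of the 3681 genes outside those 4 lines, called or not, 1621 (44%) also lay outside all 10 in the same direction, and of all genes tested 1668 (12.3%) lay outside all 10 in either direction. Among the genes described above, *Hid1*, *Moxd1*, *Adgre5*, *Tgm1*, *Serpinb2*, *Crip1* and *Klhl13* exceeded all 10 lines, and *Obsl1*, *Axl*, *Syde2*, *Flrt2*, *Itga8* and *Apcdd1* lay below all 10. *Hid1* for example held 5.63 to 7.32 CPM in the fat-pad lines and 3.89 CPM in the parental line against 9.23 CPM in YEJH-M4. *Axl* held 544 to 666 CPM in fat-pad lines and 671 CPM in the parental line against 475 CPM. Others behaved otherwise. *Il17b* was at 0.0731 to 0.237 CPM in fat-pad lines and 0 in the parental line, close to the 0.231 CPM of YEJH-M4. In the other lung lines it was at 1.06 to 6.6 CPM. YEJH-M4 also lay within the fat-pad range for *Fos* (17.9 CPM against 16.9 to 19.9 CPM) and *Gsta4* (41.4 against 39.8 to 49.8 CPM). The same held for *Tslp* (1.35 against 1.33 to 2.4 CPM) and *Gas6* (1.27 against 0.887 to 1.39 CPM). *Cxcl3* was nearly as low in the parental line (0.187 CPM) as in YEJH-M4 (0.183 CPM), and spanned 0.325 to 3.11 CPM in fat-pad lines. *Col4a6* was higher in all 5 fat-pad lines (79.3 to 88.4 CPM) than in YEJH-M4. The parental line exceeded YEJH-M4 for *Klk6* (782 against 434 CPM), *Notum* (132 against 66 CPM) and *Adamts15* (2.19 against 1.52 CPM), which had been called higher. For *Klk6* YEJH-M4 lay within the fat-pad range of 341 to 516 CPM.

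**Figure D5:**
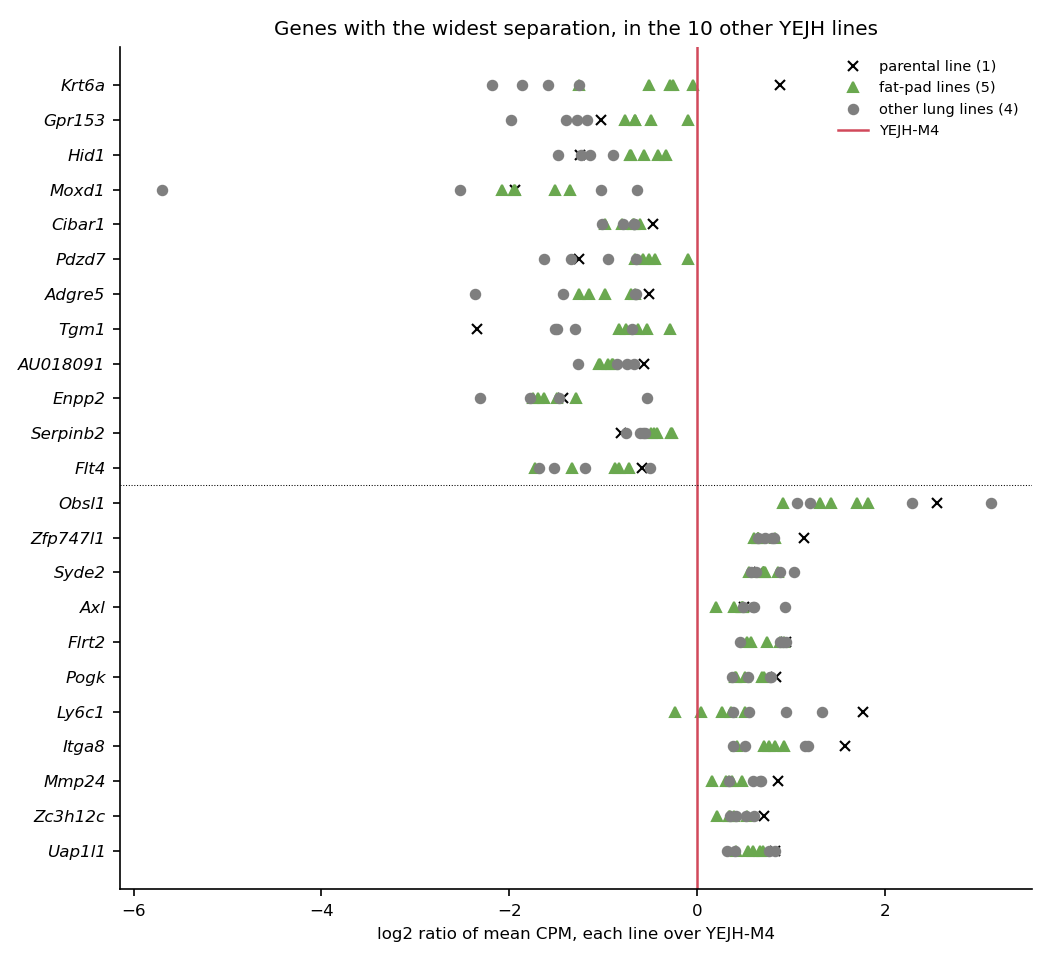
Log2 ratio of the mean CPM of each other YEJH line to that of YEJH-M4 (x axis) for 12 higher and 11 lower genes with the widest separation (y axis), with circles for lung lines, triangles for fat-pad lines and crosses for the parental line. Points stay on 1 side of the red line at 0 for most genes, whereas for *Krt6a* and *Ly6c1* the parental line or a fat-pad line falls on the other side.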

How the data were processed

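Reads per gene were deposited by the authors as raw counts, without normalisation, together with 5 classes of reads not assigned to genes, which were left out of library sizes and tests. Per the labels, a TruSeq v2 RNA kit, which does not mark strand, and a NextSeq500 were used, and the submitters' processing notes name FastQC, HISAT2, SAMtools 1.2 and HTSeq. Those notes name a human genome build, whereas the gene identifiers are those of mouse, and 50764 of 54838 (92.6%) matched GRCm39, which gave names and positions. How overlapping genes were counted was not given in the sources used here. All columns were matched to a library.

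Counts of 15 libraries were compared in R 4.3.3 with edgeR 4.0.16 (TMM scaling, filterByExpr by line, quasi-likelihood test, Benjamini-Hochberg adjustment over all genes tested, threshold 0.05), with a term for line and a term for library run. The contrast was YEJH-M4 minus the mean of the 4 other lines. Line means for the range were log2 CPM with a prior count of 2, adjusted for run, and the standard error is the difference divided by the square root of F. Counts were also summed per line. Nothing says that the repeats of a line came from separate cultures, so p values measure only the spread between these libraries, which may be technical. DESeq2 1.42.0 and limma 3.58.1 served as alternatives. Positions were described in windows of 50 tested protein-coding genes. Figures used Python 3.11.15 with matplotlib 3.10.9.

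The genes named were *Upp1* and *Upp2*, the 12 protein-coding genes in each direction with the widest gap to the nearest line mean among called genes without overlap in either run and with at least 5 CPM, up to 4 called genes of each of 31 lists, and the 5 genes in each direction with the smallest line-level p, of which 1 gene is not reported here. Others are named after their values were seen: *Apcdd1*, *Hhip*, *Ngfr*, the genes of the chromosome 4 block, and members of the 3 added lists. The members, the lists and the rule were chosen with earlier results of these data known. Same-numbered repeats of different lines did not deviate together in every pair (correlation above 0.1 in 18 of 30 pairs, lowest -0.26), so the numbers were not taken to pair samples.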

Additional observations from a re-analysis of the deposited data

Results flagged for a closer look

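For 5 of 101 genes examined, 1 of the 4 other lines lay far from the remaining 3 in run-adjusted mean log2 CPM, measured as its gap to the nearest line divided by the range of the 4. Chance alone flags about 1 in 20 such groups. YEJH-M1 was the low line for *Ccne2* (ratio 0.8347), *Virma* (0.8293) and *Rad54b* (0.8674), all in the chromosome 4 block described above. YEJH-M3 was the high line for *Hhip* (0.9352), where its repeat 2 held 10.8 CPM against 5.52 and 6.85 CPM in the other repeats. YEJH-M2 was the high line for *Csf3* (0.8533).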

How the results depend on the processing

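The count of 274 genes (192 higher, 82 lower) stayed within 1.5 times under DESeq2 size factors, library totals, either expression filter, DESeq2's test and omission of the run term. Within run A it was 178 (37 lower), and within run B 42 (34 higher, 8 lower). Without YEJH-M1 it was 433 (283 higher, 150 lower), and without YEJH-M2 388 (290 higher, 98 lower). Without YEJH-M3 it was 483 (352 higher, 131 lower), and without YEJH-M5 190 (110 higher, 80 lower). In these 4 settings the range was over 3 lines, not 4. With all 45 libraries in the fit it was 426 (289 higher, 137 lower). With each library left out in turn it ran from 141 to 419 (103 to 312 higher, 37 to 107 lower). With a replicate block added it was 346 (245 higher, 101 lower), although the numbers did not pair the samples. Between lines, DESeq2 called 1 gene and every other alternative 0. The cause of these differences was not tested. The median of the chromosome 4 block was 0.41 within run A, 0.60 within run B and 0.42 without YEJH-M1, with 0.473 to 0.601 when single libraries were left out, and 0.53 with the replicate block, and these settings were chosen after seeing the data. Of 2897 values for single genes, 3 changed sign: *Upp2* within run A (-0.49) and without repeat 3 of YEJH-M4 (-0.14, with a highest value of 0.49 when repeat 1 was left out), and *Rbm12b2* within run A (-0.12). In 296 the call was lost, and in 1 it was gained: *Upp1* without YEJH-M2 (0.34, adjusted p = 0.0489 in edgeR's test).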
